A study of Mus musculus with 7 samples.

Results

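The genes of glycolysis and of the pentose phosphate pathway were followed across 7 RNA sequencing libraries of mouse B cells. The set was a written list of 34 genes, taken by name out of 11641 genes named in at least 1 library. No threshold on measured values was used, but the list was chosen with earlier results of these data known. It holds 2 glucose transporters, 3 hexokinases, 7 genes from glucose-6-phosphate isomerase to triosephosphate isomerase, 3 PFKFB genes, 5 genes from glyceraldehyde-3-phosphate dehydrogenase to enolase, 5 genes that decide the fate of pyruvate, 2 lactate transporters and 7 pentose phosphate genes. All cells were wild-type primary B cells of the C57BL/6 strain. The 7 groups were unstimulated cells at 0 h, and cells given anti-IgM, BAFF or the 2 together for 8 h or for 30 h. Anti-IgM is an antibody that ligates the B cell antigen receptor, and BAFF is a cytokine of the tumour necrosis factor family that keeps mature B cells alive. Each group was 1 library, so no test between groups could be made, and every interval below covers counting error only. Cells kept in culture with no stimulus were not analysed here, and in any comparison with the unstimulated cells stimulus and time in culture cannot be told apart. Age, sex, the doses and the number of animals behind a library are not given in the sources used here.

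As background, glycolysis splits glucose into pyruvate, and lactate dehydrogenase turns pyruvate into lactate, which leaves the cell through monocarboxylate transporters. The pentose phosphate pathway leaves glycolysis at glucose-6-phosphate: its oxidative arm yields NADPH and its non-oxidative arm exchanges sugars between ribose-5-phosphate, the backbone of nucleotides, and the intermediates of glycolysis. Resting B cells take up little glucose, and activated B cells are known to raise glucose uptake and to draw on both pathways as they grow and divide.

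Values are FPKM, the fragments of an assembled transcript scaled to its length and to the depth of the library, added up within a gene for assembled transcripts of 300 bases or longer. FPKM is per length, but it also depends on how a gene was assembled, so levels of different genes can be set side by side only roughly. Mapped fragments recovered from the values came to between 18.7 M and 28.6 M for a library, and 32 or 33 of the 34 genes were assembled in each. Of the 7 B cell markers, 6 were assembled in every library, and Cd79a was not assembled in any. Their summed FPKM was 1770 unstimulated, 806 with anti-IgM, 1759 with BAFF and 1008 with both at 8 h, and 1533 to 2205 at 30 h, so it was lowest in the 2 libraries with anti-IgM at 8 h. Macrophage markers summed to 380.4 FPKM in the unstimulated library (15 of 16 assembled), to between 59.2 and 69.4 at 8 h (7 or 8 of 16) and to between 133 and 154 at 30 h (10 or 11 of 16). Neutrophil markers were not assembled in any library (0 of 8). A marker that was not assembled, such as Cd79a, was not thereby shown to be absent. T cell markers (1 to 3 of 8 assembled) summed to 24.3 FPKM in the unstimulated library, 14.9 and 36.2 with BAFF alone (8 h, then 30 h), 45.8 and 95.4 with anti-IgM alone and 44.8 and 91.7 with both stimuli. The sum was thus higher in the 4 libraries with anti-IgM, as were many of the genes below. Lck made up 16.5 of the 24.3 FPKM in the unstimulated library and nearly all of the sum in the others; Cd3e, Cd3d, Cd8b1 and Trac were not assembled in any library, and Cd3g, Cd4 and Cd8a were at most 4.62 FPKM. The part of T cells or of the B cell share in the values below was not tested. Where 7 values of a gene are given below, they run in the order unstimulated, then anti-IgM, BAFF and both at 8 h, then anti-IgM, BAFF and both at 30 h.

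Libraries with anti-IgM, alone or with BAFF, held more RNA than unstimulated cells for the phosphofructokinase gene Pfkp, for the main line of glycolysis from aldolase to lactate, for the lactate exporter gene Slc16a1 and for the transketolase gene Tkt. Slc2a3, a glucose transporter gene, was lower in the same libraries and counted in 3 of the 4. Slc2a1, the other glucose transporter gene of the list, was not counted in any comparison with the unstimulated library. Slc2a6, a glucose transporter gene outside the list, was counted higher in every such comparison. With BAFF alone, 7 genes of the main line (Aldoa, Tpi1, Gapdh, Pgk1, Pgam1, Eno1 and Ldha) stood above the unstimulated library by less than 2-fold, apart from Pgam1 at 30 h (2.02-fold). Counted genes are those with an assembled transcript in both libraries compared, at least 1 FPKM in 1 of them, a difference of at least 1 in log2(FPKM + 1) and counting intervals apart. The added 1 understates the change of genes with low FPKM. A counted gene was called held when a second measure also differed by at least 1 the same way. That measure sets all fragments calculated to lie in the exons of a gene against the length of those exons. It is calculated from the same FPKM and is therefore not independent evidence.

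Against the unstimulated library, anti-IgM at 8 h had 12 of 32 compared genes higher and 2 lower, while 10.8% of all genes compared were counted higher and 10.6% lower. Held genes numbered 10 higher and 1 lower, with 8.18% and 6.32% over all genes. The combined stimulus at 8 h had 12 of 31 higher and 1 lower, beside 12.3% and 8.87% of all genes, and every one of the 13 was held, beside 8.59% and 5.88% held over all genes. At 30 h anti-IgM gave 10 of 32 higher and 1 lower (8.44% and 7.34% of all genes), of which 9 and 1 were held (5.53% and 3.81%). For both stimuli at 30 h the count was 12 of 31 higher and 0 lower (8.35% and 7.86%), of which 11 were held (5.53% higher and 4.07% lower held over all genes). BAFF alone gave 1 of 31 higher and 0 lower at 8 h, below the 5.6% and 4.31% of all genes, and 0 held beside 1.67% and 1.92%. At 30 h BAFF gave 2 of 32 higher and 0 lower, where all genes gave 5.21% and 4.1%, and 1 was held beside 1.79% and 1.42%. The share counted higher was thus 31.25% to 38.7% of the compared genes in the 4 libraries with anti-IgM, and near or below the share of all genes in the 2 with BAFF alone. With 1.5-fold in place of 2-fold, BAFF alone had 5 of 31 genes higher at 8 h (15.1% of all genes) and 12 of 32 at 30 h (12.7% of all genes). At 8 h the median difference was 0.46 with anti-IgM, 0.32 with BAFF and 0.67 with both, where all genes had 0.05, 0.12 and 0.11. The medians at 30 h were 0.45, 0.40 and 0.64, beside 0.06, 0.07 and 0.02 for all genes. Of the 34 genes, 32 could be compared in at least 1 of the 6 comparisons. At least once, 17 were counted higher and 2 lower (Slc2a3 and Hk3), where 23.1% and 17.4% of all genes were, and 0 were counted both ways. These 6 comparisons share the unstimulated library, so its own error enters each of them.

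**Figure D1:**
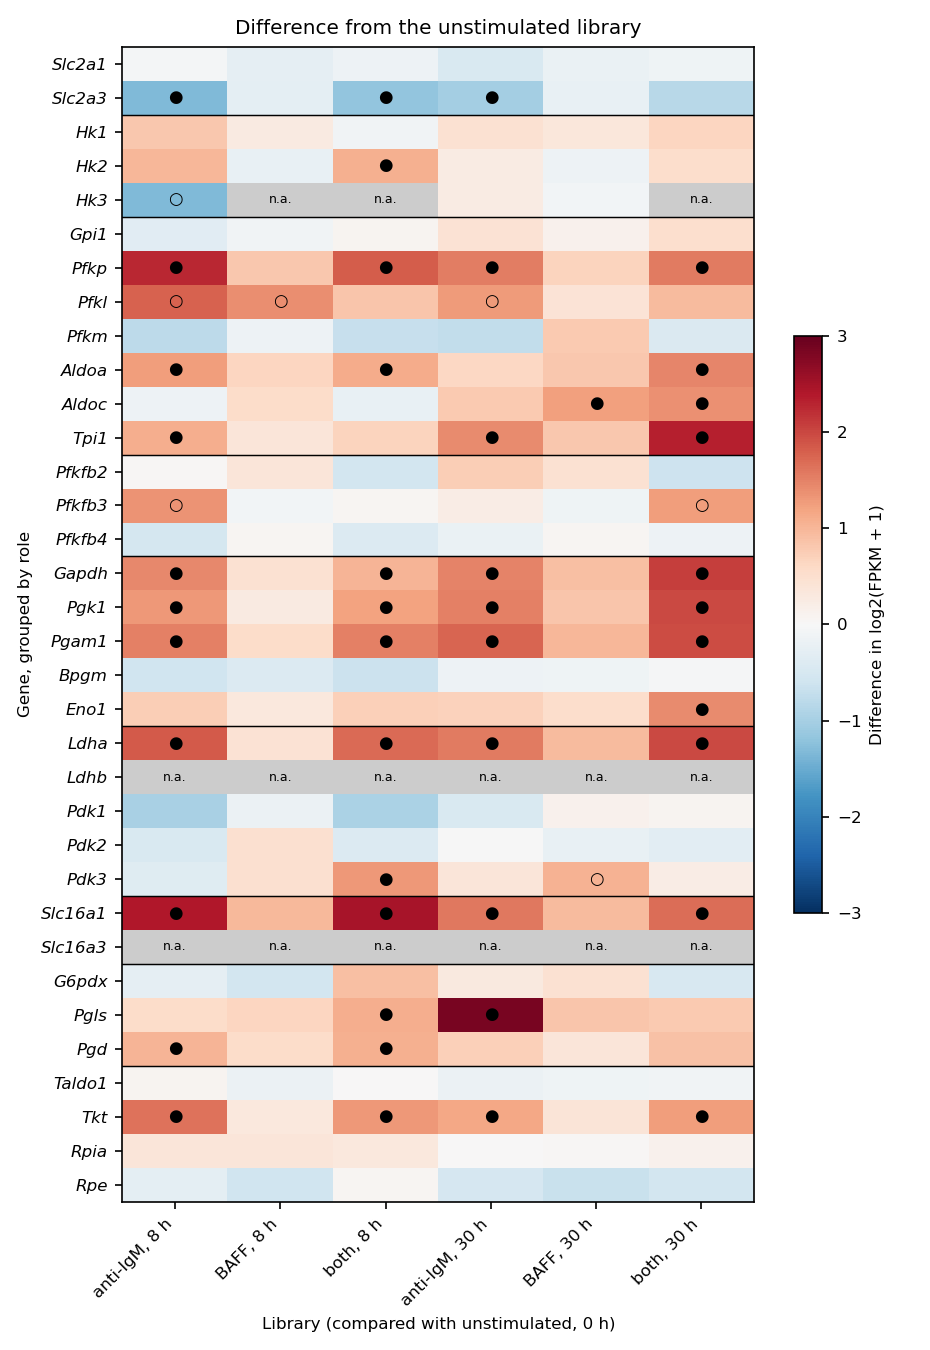
Difference in log2(FPKM + 1) from the unstimulated library for each of the 34 genes (rows, grouped by role) in the 6 stimulated libraries (columns). Filled circles mark genes counted and held, open circles genes counted but not held, and grey cells (n.a.) genes not assembled in 1 of the 2 libraries. Pfkp, Gapdh, Pgk1, Pgam1, Eno1, Ldha, Slc16a1 and Tkt are red in the 4 columns with anti-IgM and paler in those with BAFF alone. Aldoa and Tpi1 are red in all 6 columns. Aldoa is paler with anti-IgM at 30 h (0.62) than with BAFF (0.65 and 0.81). Tpi1 is paler with both at 8 h (0.67) than with BAFF at 30 h (0.81). Slc2a3 is blue.

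Ldha and Slc16a1 carry some of the widest differences, Pgk1 and Hk2 are shown for the main line and the entry of the pathway, and Slc2a1 is the contrast whose RNA was not counted as different. The 250 bases before the RefSeq start of these 5 genes are therefore shown, from GRCm38.p6, a patched release of the assembly that mm10 is made from, each on the strand of its gene. Capitals mark ACGTG on either strand, the core of the site of hypoxia-inducible factors; where it lies inside CACGTG, the E-box that MYC and other factors bind, the whole E-box is in capitals. Ldha lies at chr7:46845554-46845803 on the plus strand, Slc16a1 at chr3:104638414-104638663 on the plus strand, Pgk1 at chrX:106186850-106187099 on the plus strand, Hk2 at chr6:82774455-82774704 on the minus strand, and Slc2a1 at chr4:119108495-119108744 on the plus strand.
Ldha: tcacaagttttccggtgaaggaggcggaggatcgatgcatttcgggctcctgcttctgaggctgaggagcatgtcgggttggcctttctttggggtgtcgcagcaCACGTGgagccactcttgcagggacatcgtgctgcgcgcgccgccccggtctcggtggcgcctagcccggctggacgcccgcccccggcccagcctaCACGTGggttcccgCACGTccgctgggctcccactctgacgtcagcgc
Slc16a1: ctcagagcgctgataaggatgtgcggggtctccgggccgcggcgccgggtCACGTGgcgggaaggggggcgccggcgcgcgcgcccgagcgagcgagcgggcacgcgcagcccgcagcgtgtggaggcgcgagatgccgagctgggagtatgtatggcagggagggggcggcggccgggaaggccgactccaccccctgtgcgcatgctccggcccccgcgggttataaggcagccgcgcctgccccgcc
Pgk1: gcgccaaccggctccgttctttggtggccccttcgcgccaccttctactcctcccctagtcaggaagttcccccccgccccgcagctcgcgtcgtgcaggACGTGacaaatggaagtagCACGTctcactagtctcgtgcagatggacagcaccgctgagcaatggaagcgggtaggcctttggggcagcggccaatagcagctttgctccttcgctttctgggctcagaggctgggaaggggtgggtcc
Hk2: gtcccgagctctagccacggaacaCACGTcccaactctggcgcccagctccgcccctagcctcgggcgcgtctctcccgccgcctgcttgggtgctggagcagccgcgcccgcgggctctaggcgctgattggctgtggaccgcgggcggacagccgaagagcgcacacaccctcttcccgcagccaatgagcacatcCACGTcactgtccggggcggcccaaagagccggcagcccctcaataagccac
Slc2a1: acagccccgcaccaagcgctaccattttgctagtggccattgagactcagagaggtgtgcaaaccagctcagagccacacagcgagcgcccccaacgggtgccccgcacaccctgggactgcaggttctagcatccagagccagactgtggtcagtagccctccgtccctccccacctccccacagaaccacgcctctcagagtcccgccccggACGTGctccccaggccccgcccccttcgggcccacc
Counted backwards from the start, the Ldha window holds CACGTG at -145 and -48 and a further ACGTG at -34. In the Slc16a1 window CACGTG begins at -200. The Pgk1 window has ACGTG at -150 and -131, that of Hk2 at -226 and -52, and that of Slc2a1 at -36, all outside an E-box. These 5 were picked among genes that hold ACGTG: the windows of Gapdh, Tpi1, Eno1, Pfkp and Tkt, which were also counted higher, hold neither motif.

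Promoter entries were found for 33 of the 34 genes, all but Slc2a3. For Hk3, Slc16a3, Ldhb, Pgls and Pfkfb2 the assembled 5′ end lay at 11458, 7219, 9310, -2013 and 407 bases from the RefSeq start used. Whether their windows lie before the start in use is therefore not known. CACGTG was in 5 of the 33 windows (15.2%: Ldha, Slc16a1, Pfkfb2, Pfkfb3 and Pdk2), beside 6.02% of all 32851 promoters of this length and 8.54% of the 10694 promoters of genes assembled here. ACGTG on either strand, which CACGTG contains, was in 13 (39.4%, Hk3 and Slc16a3 among them), beside 16.6% and 22.0%. A loose form of the NF-kappaB site, GGG and CC with 5 free bases between them, was in 25 (75.8%; 45.8% and 61.4%), and GGGCGG, the core of the GC box, was also in 25 (75.8%; 32.7% and 57.1%). The GC box and the loose NF-kappaB form can overlap. TATAAA was in 0 windows, with 12.4% of all promoters and 6.35% of those assembled. Median GC content was 61.2% for the 33 windows, 59.6% for assembled genes and 52.4% for all promoters. All 5 motifs were searched on both strands, and a match describes letters in a window, not a bound site. The 33 windows use the start nearest to the assembled 5′ end, while the shares over assembled and all promoters count every RefSeq start. Of the 5 genes with CACGTG, Ldha and Slc16a1 were counted higher and held in 4 of 6 comparisons, Pfkfb3 was counted in 2 but held in 0, and Pfkfb2 and Pdk2 were counted in 0.

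The 2 glucose transporter genes of the list differed in what they showed. Slc2a1, which encodes the widely expressed transporter GLUT1, stood at 20.1, 19.1, 16.3, 18.0, 14.3, 17.4 and 18.2 FPKM. Its highest library was the unstimulated one and its lowest anti-IgM at 30 h, a 1.40-fold range, and neither an increase nor a decrease of 2-fold was seen. Slc2a3, which encodes the high-affinity transporter GLUT3, stood at 14.8, 5.28, 11.9, 5.91, 6.84, 12.4 and 7.80 FPKM. All 4 libraries with anti-IgM lay below all 3 without it, and the intervals of the nearest pair, 6.98 to 8.63 for both stimuli at 30 h and 11.0 to 12.8 for BAFF at 8 h, did not overlap. Slc2a3 was counted lower and held with anti-IgM at 8 h (0.36-fold), with both at 8 h (0.40-fold) and with anti-IgM at 30 h (0.46-fold). The summed macrophage markers were also lower than in the unstimulated library in each of these. With anti-IgM at 30 h, though, Mpeg1 stood at 61.9 FPKM against 34.8 unstimulated, Marco at 9.57 against 1.93 and Lyz2 at 16.8 against 16.3. The other macrophage markers assembled in that library were lower than unstimulated. Between anti-IgM and BAFF at 8 h Slc2a3 was 0.44-fold, and the macrophage markers summed to 62.4 and 69.4 FPKM, most of it Mpeg1 (33.5 and 39.2) and Adgre1 (11.1 and 11.3).

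Among hexokinases, which trap glucose as glucose-6-phosphate, Hk1 had the highest FPKM in all 7 libraries, though with both stimuli at 8 h its interval overlapped that of Hk2. By reads over exons Hk2 was above Hk1 with anti-IgM (10.2 and 8.45) and with both (10.8 and 8.48) at 8 h. Hk2, the inducible isozyme, stood at 4.68, 10.3, 3.83, 10.9, 5.70, 4.13 and 7.23 FPKM. The 2 libraries with anti-IgM at 8 h were the highest and the 2 with BAFF alone the lowest. Both stimuli at 8 h were counted higher than unstimulated (2.32-fold, held), and anti-IgM at 8 h fell just short of the counted size (2.20-fold, 0.99 in log2(FPKM + 1)). Anti-IgM at 8 h was counted higher than BAFF at 8 h (2.69-fold, held). In the unstimulated library Hk2 was assembled as 2 pieces whose FPKM were added, whereas every other library had 1 piece. By reads over exons the unstimulated level was 2.15, the lowest of the 7, and anti-IgM at 8 h stood 4.74-fold above it.

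Hk1, the constitutive hexokinase, stood at 12.2, 22.2, 14.9, 11.2, 16.9, 15.6 and 19.5 FPKM and was counted in no comparison with the unstimulated library. The 22.2 of anti-IgM at 8 h was a sum of 3 pieces, and reads over exons put that library lowest, at 8.45. By that measure the 3 libraries at 30 h (15.3, 13.5 and 16.3) lay above the unstimulated 9.58 and the 3 at 8 h. Hk3, a hexokinase known from myeloid cells, was assembled in 4 libraries. The unstimulated library had 3.59 FPKM, anti-IgM at 8 h had 0.829, and at 30 h anti-IgM had 4.46 and BAFF had 3.37. Its count as lower with anti-IgM at 8 h (0.23-fold) was not held. Macrophage markers summed to 380.4 FPKM in the unstimulated library and 62.4 with anti-IgM at 8 h, and to 69.4, 59.2 and 133 in the 3 libraries without Hk3 (BAFF and both at 8 h, both at 30 h). At 30 h they summed to 141 with anti-IgM and 154 with BAFF, below the unstimulated sum. The FPKM of Hk3 was near its unstimulated level in these 2 libraries. By reads over exons, though, Hk3 stood at 0.597 and 0.534 there, against 1.47 unstimulated. Its longest piece had 511 bases with anti-IgM and 593 with BAFF at 30 h, against 2466 unstimulated. The part of macrophages in the Hk3 and Slc2a3 values was not tested. In bulk RNA, fewer cells of a type and less RNA per cell cannot be told apart.

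**Figure D2:**
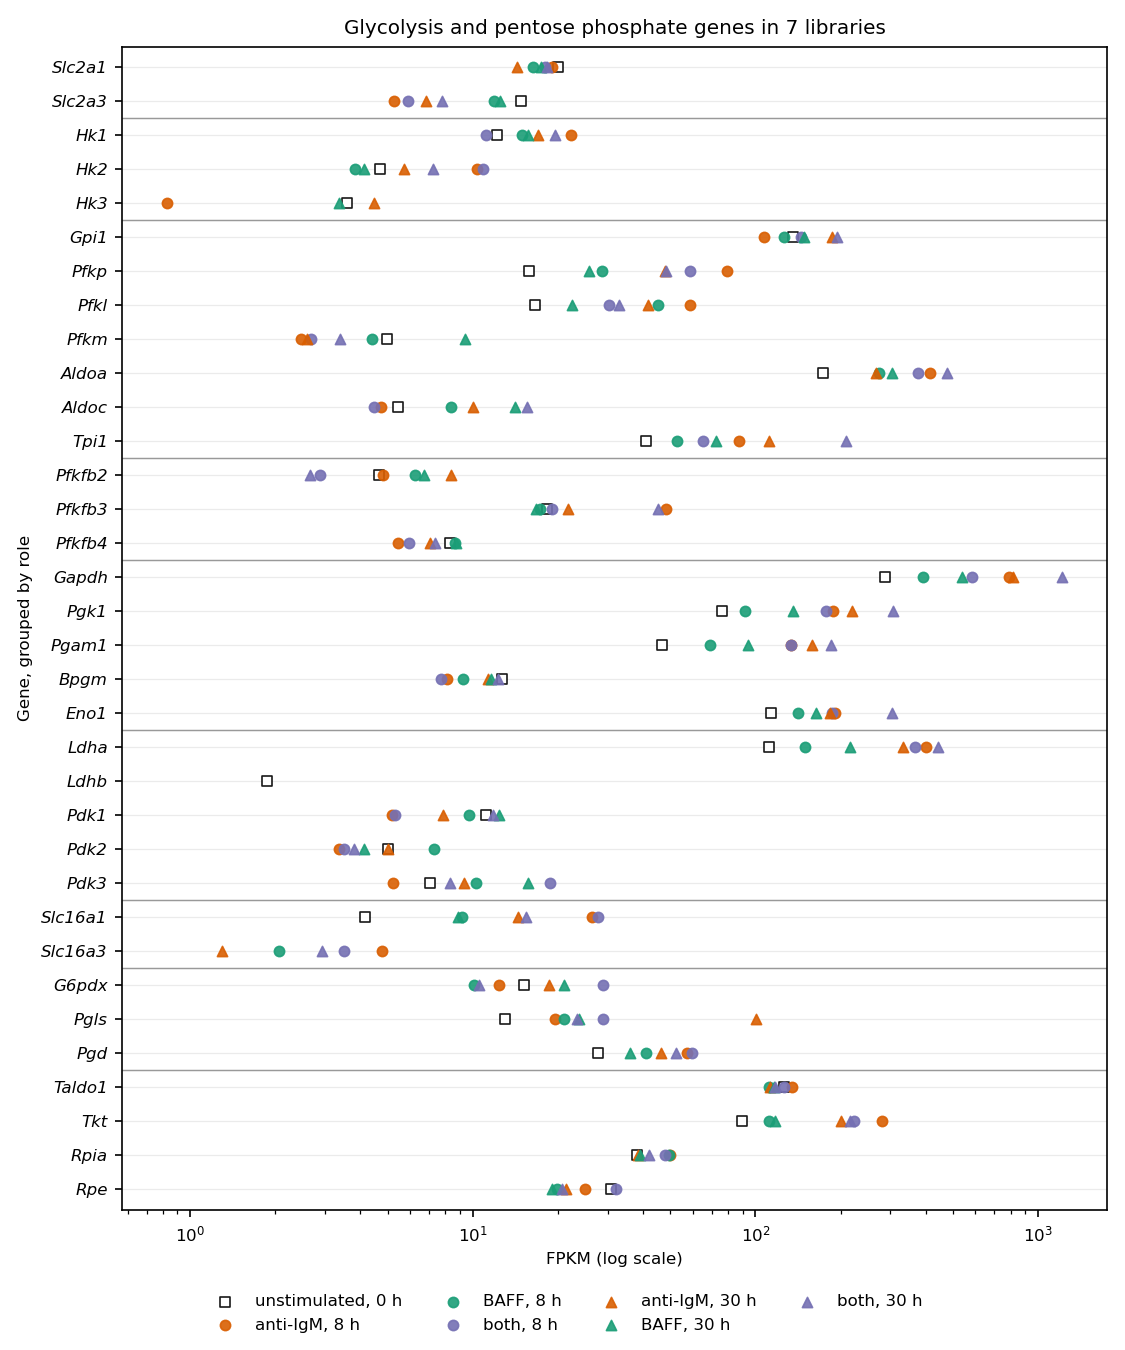
FPKM of each gene (rows, grouped by role) on a log scale in the 7 libraries, 1 symbol per library. The open square of the unstimulated library is the leftmost symbol for Gapdh, Pgk1, Pgam1, Eno1 and Ldha, among others, and the rightmost for Slc2a1, Slc2a3 and Bpgm; it is the only symbol for Ldhb.

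Gpi1, the isomerase that feeds the next step, stood at 136, 107, 127, 145, 186, 149 and 194 FPKM. It was counted in no comparison and had a 1.81-fold range. Phosphofructokinase, the committed step of glycolysis, has 3 subunit genes, and they behaved differently. Pfkp, the platelet-type subunit, stood at 15.8, 79.6, 28.7, 58.5, 48.0, 25.8 and 48.3 FPKM. Every stimulated library lay above the unstimulated one, and the 4 with anti-IgM lay above both with BAFF alone. Pfkp was counted higher and held in those 4, by 5.03-fold with anti-IgM and 3.70-fold with both at 8 h, and by 3.03-fold and 3.06-fold at 30 h.

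Pfkl, the liver-type subunit, stood at 16.6, 58.4, 45.2, 30.3, 41.7, 22.5 and 32.8 FPKM. Counts as higher with anti-IgM at 8 h (3.53-fold) and 30 h (2.52-fold) and with BAFF at 8 h (2.73-fold) were not held. In these 3 libraries the longest Pfkl piece had 2123, 2247 and 2497 bases, against 2898 to 3511 in the other 4. In these 3, in the unstimulated library and with both stimuli at 8 h, 2 pieces were added up. By reads over exons Pfkl stood at 13.6, 23.6, 20.6, 24.1, 17.5, 17.5 and 30.9, so that both stimuli at 30 h were highest and unstimulated cells lowest by 2.28-fold. Pfkm, the muscle-type subunit, was low, between 2.47 and 9.36 FPKM, came in 2 to 4 pieces in every library, and was counted in none of the comparisons with the unstimulated library.

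The PFKFB genes encode the enzymes that make and remove fructose-2,6-bisphosphate, the activator of phosphofructokinase. Pfkfb3 stood at 18.3, 48.1, 17.3, 19.0, 21.7, 16.7 and 45.1 FPKM, with anti-IgM at 8 h (2.63-fold) and both at 30 h (2.46-fold) counted higher. Neither count was held. Pfkfb3 was assembled as 5 pieces and 3 pieces in those 2 libraries, several of them short, so that parts of 1 gene were added up. Its reads over exons ranged only from 14.6 to 18.0, with the highest value 1.23-fold above the lowest. Pfkfb4 lay between 5.42 and 8.72 FPKM and Pfkfb2 between 2.65 and 8.37, and both were counted in 0 of the 6 comparisons.

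From aldolase to enolase and lactate dehydrogenase, 7 genes shared the same lowest and highest library. Aldoa, the main aldolase gene, stood at 173, 413, 273, 377, 267, 304 and 477 FPKM. Tpi1, triosephosphate isomerase, stood at 40.9, 87.7, 53.0, 65.5, 111, 72.2 and 209.8 FPKM. Gapdh, the dehydrogenase that opens the energy-yielding stretch, was the most abundant at 288, 787, 393, 581, 816, 539 and 1218 FPKM. For each of these genes the unstimulated library was lowest and both stimuli at 30 h highest.

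Pgk1, the first enzyme of glycolysis to make ATP, stood at 76.2, 189, 91.9, 178, 219, 135 and 306 FPKM. Pgam1, the mutase that follows it, stood at 46.5, 134, 68.8, 134, 158, 93.9 and 184 FPKM. Eno1, the main enolase gene of these cells, stood at 113, 191, 141, 187, 183, 163 and 305 FPKM. The order of libraries was the same at both ends as for Aldoa, Tpi1 and Gapdh, and Eno1 was counted higher only with both stimuli at 30 h (2.70-fold, held). Ldha, the lactate dehydrogenase subunit, stood at 111, 402, 149.6, 366, 332, 217 and 442 FPKM and was counted higher and held in all 4 libraries with anti-IgM, by 3.61-fold, 3.28-fold, 2.98-fold and 3.97-fold.

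All 7 genes (Aldoa, Tpi1, Gapdh, Pgk1, Pgam1, Eno1 and Ldha) were above the unstimulated library in each of the 6 stimulated ones, with counting intervals apart in every case, and 3 other scalings of the libraries changed none of these directions. Grouping these 7 was done after their values were seen. Their median ratio to the unstimulated library was 2.48 with anti-IgM, 1.34 with BAFF and 2.17 with both at 8 h, and 2.83, 1.78 and 3.97 at 30 h. Reads over exons gave 2.54, 1.34 and 2.46 at 8 h and 2.91, 1.83 and 3.94 at 30 h. The largest single value was that of Tpi1 with both at 30 h, 5.13-fold. Genes such as Gapdh and Pgam1 have processed pseudogene copies, and how reads that map to several places were treated is not given in the sources used here, so their absolute levels are uncertain.

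2 further genes of this stretch did not share the pattern. Aldoc, the brain-type aldolase, stood at 5.42, 4.75, 8.35, 4.47, 9.98, 14.2 and 15.6 FPKM. It was highest at 30 h and was counted higher and held with BAFF (2.61-fold) and with both (2.88-fold) at that time. With both at 30 h its transcript had 2597 bases, against 1615 to 1722 in the other libraries, and reads over exons gave 4.61-fold. Bpgm, which makes 2,3-bisphosphoglycerate and is best known from red cells, stood at 12.7, 8.09, 9.24, 7.73, 11.3, 11.6 and 12.3 FPKM and was not counted. Erythroid markers summed to 221 FPKM in the unstimulated library, 48.1 with BAFF at 8 h and 0 with anti-IgM or both at 8 h, and to between 0 and 12.2 at 30 h; their part in the Bpgm values was not tested.

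The fate of pyruvate is set by lactate dehydrogenase and by the PDK kinases, which shut pyruvate dehydrogenase and so keep pyruvate out of mitochondria. Ldhb, the other lactate dehydrogenase subunit, was assembled only in the unstimulated library, at 1.87 FPKM, against 111 for Ldha there. Pdk1 stood at 11.1, 5.17, 9.72, 5.29, 7.86, 12.3 and 11.8 FPKM. It was lowest with anti-IgM or both at 8 h, and fell short of the counted size in each comparison with the unstimulated library. Pdk2 lay between 3.36 and 7.31 FPKM, highest with BAFF at 8 h, and was not counted either. Pdk3 stood at 7.05, 5.22, 10.2, 18.8, 9.28, 15.7 and 8.33 FPKM, but its transcript had 8823 to 11369 bases in 3 libraries (anti-IgM at 8 h and 30 h, both at 30 h) and 2110 to 2305 in the others. Reads over exons put the same gene at 1.77, 4.28, 2.95, 4.85, 9.25, 4.02 and 8.30, with unstimulated cells lowest. Both stimuli at 8 h were counted higher than unstimulated by FPKM (2.66-fold) and held; BAFF at 30 h was counted (2.23-fold) but not held. For the remaining libraries the 2 measures of Pdk3 ranked them differently.

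Slc16a1 and Slc16a3 encode MCT1 and MCT4, monocarboxylate transporters that can carry lactate out of cells. Slc16a1 stood at 4.14, 26.4, 9.14, 27.7, 14.4, 8.89 and 15.4 FPKM. The 2 libraries with anti-IgM at 8 h were highest, the 2 with anti-IgM at 30 h came next, and the BAFF libraries stood between them and the unstimulated one. Slc16a1 was counted higher and held in the 4 with anti-IgM, by 6.36-fold and 6.68-fold at 8 h and 3.48-fold and 3.70-fold at 30 h. BAFF alone gave 2.21-fold at 8 h and 2.15-fold at 30 h, just short of the counted size at these low levels (0.98 and 0.94 in log2(FPKM + 1)). Slc16a3 was not assembled in the unstimulated library or with BAFF at 30 h, and had 4.77, 2.06 and 3.49 FPKM in the 3 libraries of 8 h, 1.30 with anti-IgM at 30 h and 2.92 with both. It was mostly in short pieces, so no fold is given.

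In the oxidative arm of the pentose phosphate pathway, Pgd, the enzyme that releases ribulose-5-phosphate and NADPH, stood at 27.8, 57.2, 40.9, 59.6, 46.5, 36.0 and 52.2 FPKM. Pgd was in 1 piece of 2176 to 2217 bases everywhere and was counted higher and held with anti-IgM (2.06-fold) and both (2.14-fold) at 8 h. G6pdx, the first and rate-limiting enzyme, stood at 15.1, 12.4, 10.1, 28.9, 18.6, 21.0 and 10.5 FPKM. Its transcript had 5296 to 6030 bases, less than 50% of them in G6pdx exons, in the 3 libraries with the lowest values, and 2375 to 2831 bases in the other 4. Among those 4, unstimulated cells were at 15.1 and both stimuli at 8 h at 28.9, 0.89 apart in log2(FPKM + 1) and so not counted. Pgls, the lactonase between these 2 enzymes, stood at 13.0, 19.5, 20.9, 29.0, 100.4, 23.8 and 23.3 FPKM. The 100.4 came from a transcript of 999 bases with anti-IgM at 30 h. Every other library had a transcript of 2926 to 3789 bases that ran beyond the gene, with 883 bases in Pgls exons. The 7.69-fold and 2.22-fold counts for anti-IgM at 30 h and both at 8 h were held, but the second measure carries the same long transcripts.

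In the non-oxidative arm only Tkt was counted. Tkt, transketolase, stood at 89.7, 281, 112, 222, 201, 118 and 216 FPKM. Its 4 libraries with anti-IgM, from 201 to 281, lay above the 3 without, from 89.7 to 118, and each was counted higher than unstimulated and held (3.13-fold and 2.48-fold at 8 h, 2.24-fold and 2.41-fold at 30 h). Taldo1, transaldolase, its partner in the same exchange of carbon units, ranged from 111 to 134 FPKM over the 7 libraries, a 1.21-fold range and the narrowest of the 31 genes assembled in all 7. Rpia and Rpe, the isomerase and epimerase of ribulose-5-phosphate, ranged from 38.2 to 49.7 FPKM and from 19.1 to 32.1 FPKM.

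**Figure D3:**
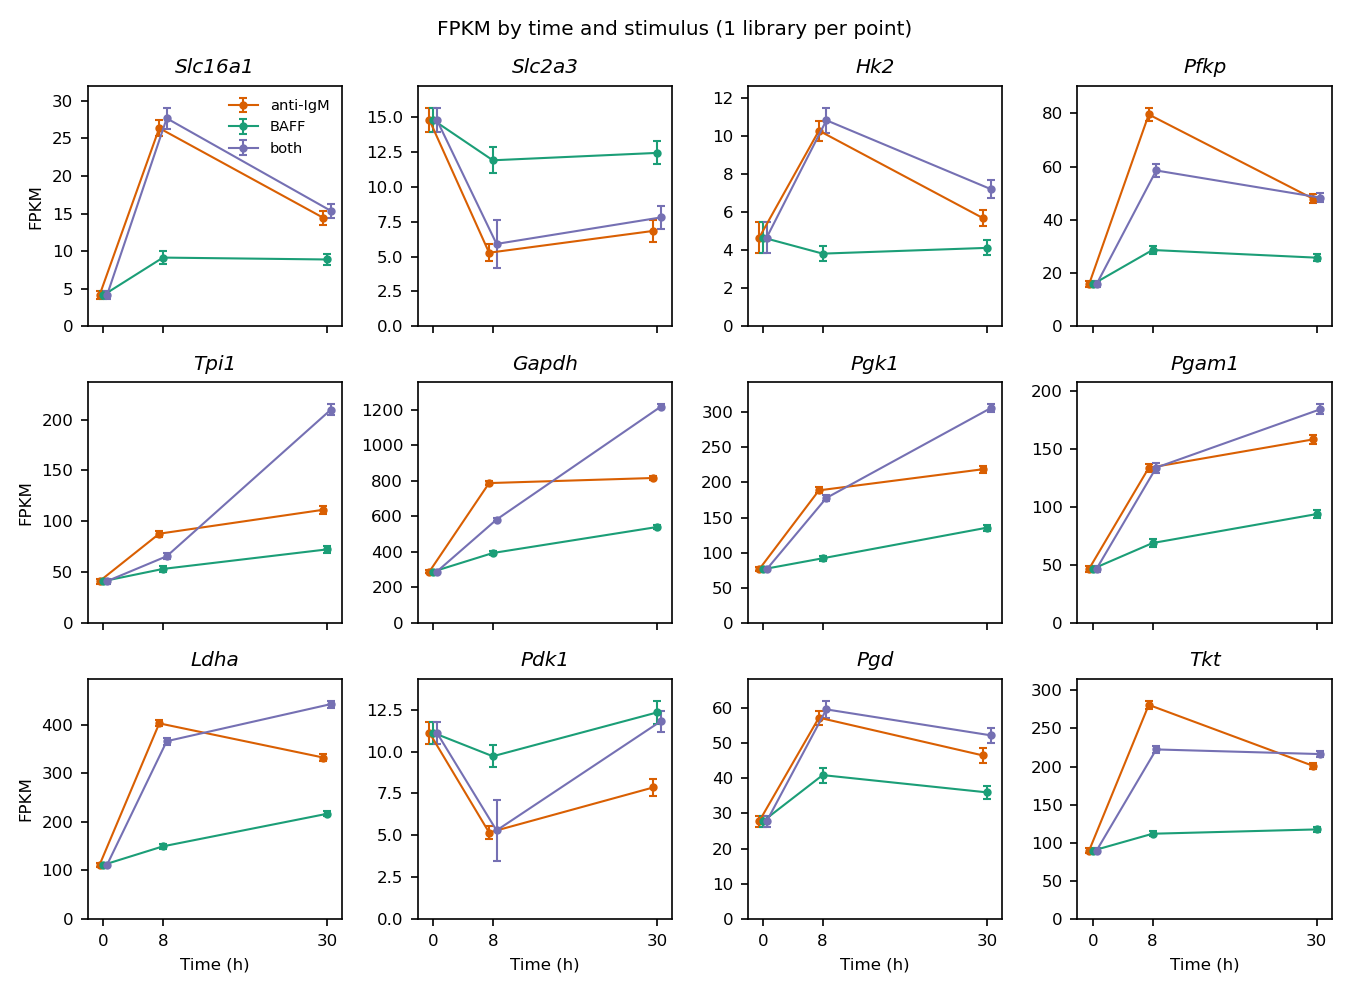
FPKM of 12 genes against time for anti-IgM, BAFF and both, 1 library per point, all lines starting from the same unstimulated library. Bars are the counting intervals; in the panels of Slc16a1, Hk2, Pfkp and Tkt the anti-IgM lines peak at 8 h, while in those of Tpi1, Gapdh and Pgk1 the line for both stimuli is highest at 30 h.

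Anti-IgM was also compared with BAFF directly, which removes the unstimulated library from the comparison and holds time in culture equal. At 8 h 8 of 32 genes were higher with anti-IgM and 1 lower, beside 4.88% and 8.43% of all genes. The 8 were Hk2 (2.69-fold), Pfkp (2.77), Pfkfb3 (2.78), Gapdh (just over 2-fold), Pgk1 (2.05), Ldha (2.69), Slc16a1 (2.88) and Tkt (2.51), and of these Pfkfb3 was not held. Slc2a3 was the lower one. Aldoa, Tpi1, Pgam1 and Eno1 were higher too, by less than the counted size, and the lowest ratio among the 7 main-line genes was 1.35. By 30 h the stimuli were closer: 1 of 32 genes was counted higher (Pgls, through its short transcript) and 1 lower (Pfkm, not held), beside 3.99% and 4.71% of all genes. For the 7 main-line genes the median ratio of anti-IgM to BAFF was 1.94 at 8 h and 1.53 at 30 h, and Aldoa was lower with anti-IgM at 30 h (267 against 304 FPKM, intervals apart).

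Adding BAFF to anti-IgM left few counted differences. At 8 h 2 of 32 genes were higher (Pdk3, not held, and G6pdx) and 1 lower (Pfkfb3, not held), beside 4.38% and 1.86% of all genes, and the G6pdx difference lay between a transcript of 2578 bases and one of 6030. Of the 7 main-line genes 5 were lower with both than with anti-IgM alone with intervals apart, and the lowest ratio was 0.74 (Gapdh). Reads over exons moved that median ratio from 0.91 to 0.97, and the 3 other scalings turned 3 of 21 directions. For Gapdh, 581 against 787 FPKM, the transcript had 1705 bases with both and 1236 with anti-IgM, and reads over exons were 498 and 489. At 30 h 1 of 32 genes was higher (Pfkfb3, not held) and 2 lower (Pfkfb2, not held, and Pgls), beside 2.11% and 3.27%. All 7 main-line genes were higher with both than with anti-IgM alone at 30 h, with intervals apart and a median ratio of 1.49. Tpi1 led at 1.89-fold, none reached the counted size, and no direction changed under the other scalings.

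Adding anti-IgM to BAFF gave 5 of 32 genes higher and 0 lower at 8 h, beside 5.62% and 6.81% of all genes. These were Hk2 (2.83-fold), Pfkp (2.04), Ldha (2.45), Slc16a1 (3.03) and G6pdx (2.87), the last again between transcripts of different extent. At 30 h 5 of 31 were higher and 2 lower, beside 3.03% and 5.09% of all genes. Tpi1 (2.91-fold), Gapdh (2.26), Pgk1 (2.26) and Ldha (2.04) were held, whereas Pfkfb3 and the lower genes Pfkm and Pfkfb2 were not.

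Between 8 h and 30 h the genes went different ways. With anti-IgM 2 of 33 were higher at 30 h (Hk3, not held, and Pgls) and 2 lower (Pfkfb3 and Slc16a3, neither held), beside 8.01% and 5.38% of all genes. Below the counted size, Slc16a1 stood at 26.4 and then 14.4 FPKM, Pfkp at 79.6 and 48.0, Tkt at 281 and 201, and Hk2 at 10.3 and 5.70, each with intervals apart. With both stimuli 5 of 32 were higher (Aldoc 3.49-fold, Tpi1 3.21-fold, Pdk1 2.23-fold, and Pfkfb3 and Gapdh, not held) and 2 lower (Pdk3, not held, and G6pdx), beside 5.58% and 6.95%. All 7 main-line genes were higher at 30 h than at 8 h with both stimuli and with BAFF, at median ratios of 1.63 and 1.36, and 4 of 7 were higher with anti-IgM, where the other scalings turned 2 of 21 directions. BAFF alone had 0 of 31 counted either way, beside 3.64% and 4.2% of all genes.

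How a gene was assembled weighed on several of these values. Of the 34 genes 17 were in more than 1 piece in at least 1 library, and adding the FPKM of pieces that lie end to end raises the sum above the level of the gene. Pfkl, Pfkfb3 and Hk1 with anti-IgM at 8 h are examples. A transcript that runs on beyond the gene, as for Pgls and G6pdx, or a long last exon, as for Pdk3, changes the value in either direction. Genes in 1 piece of like length in every library, such as Pgk1, Eno1, Pgam1, Ldha, Slc16a1, Pgd and Taldo1, gave nearly the same ratios by both measures. For such genes this largely follows from how the second measure is calculated, and is no check on their values.

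**Figure D4:**
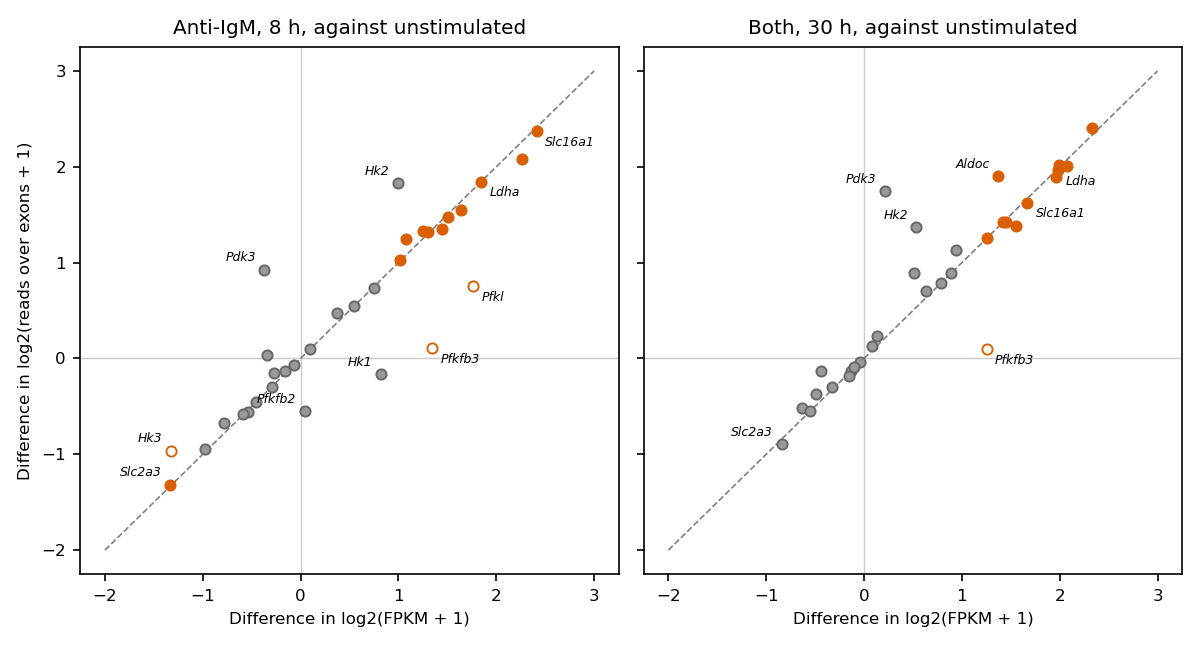
Difference from the unstimulated library in log2(FPKM + 1) (x axis) against the same difference by reads over exons (y axis), 1 point per gene, for anti-IgM at 8 h (left) and both stimuli at 30 h (right). The dashed line marks equal values; filled orange points are counted and held, open orange points counted but not held, and Pfkl, Pfkfb3 and Hk1 lie below the line on the left while Hk2 and Pdk3 lie above it in both panels.

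Other genes of glucose metabolism, from lists written beside the 34, gave further values. The shares of all genes counted higher in the 6 comparisons are those given above (10.8%, 5.6% and 12.3% at 8 h, 8.44%, 5.21% and 8.35% at 30 h), as are those counted lower (10.6%, 4.31% and 8.87%, then 7.34%, 4.1% and 7.86%). Among 25 other isozymes and transporters, 11 or 12 could be compared, and at 8 h 3 were higher with anti-IgM, 2 with BAFF and 4 with both. At 30 h these counts were 2, 1 and 4, and 0 were lower throughout. Slc2a6, a glucose transporter gene of the same family as Slc2a1, stood at 7.43, 36.6, 59.3, 33.1, 35.5, 24.9 and 44.3 FPKM, the highest with BAFF at 8 h. It was counted higher and held in all 6. Pkm, pyruvate kinase, stood at 126, 305, 176, 287, 260.3, 212 and 348 FPKM, counted and held in the 4 libraries with anti-IgM. Eno2, the neuronal-type enolase, stood at 1.04 FPKM unstimulated and between 3.04 and 7.64 in the others. Eno3 was counted only with both at 30 h (36.5 against 15.1 FPKM, held), and Gapdhs only with both at 8 h (not held).

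Of 10 genes for the entry of pyruvate into mitochondria, 0 or 1 were counted higher and 0 or 1 lower in each comparison. Mpc1, a subunit of the pyruvate carrier, was counted lower with anti-IgM and both at 8 h and with both at 30 h but not held, and Mpc2, its partner, higher with both at 8 h (19.3 and 39.8 FPKM, held). Pdpr was counted with anti-IgM at 30 h and not held. Among 26 genes of side branches, 20 or 21 could be compared, in the same order of libraries with 4, 2 and 5 higher and 2, 0 and 3 lower at 8 h, and 4, 1 and 3 higher and 3, 0 and 1 lower at 30 h. Psat1, an enzyme of serine synthesis, stood at 9.67, 46.9, 20.5, 47.1, 30.8, 27.0 and 36.7 FPKM and was counted and held in all 6. Phgdh, which opens the serine branch from 3-phosphoglycerate, stood at 37.7, 115, 66.6, 119, 79.5, 73.7 and 94.9 FPKM, counted and held in the 4 with anti-IgM. Prps1, which makes the activated ribose for nucleotides, was counted and held with anti-IgM (38.4 FPKM) and both (37.1) at 8 h, against 16.5 unstimulated. Gfpt1, the entry to hexosamine synthesis, was at 8.63 FPKM unstimulated and at 40.6, 19.5 and 47.1 at 8 h, counted in all 3 and held in the last 2. Gpd1l, a glycerol-3-phosphate dehydrogenase gene, was lower and held in the 4 libraries with anti-IgM, at 20.2 to 22.0 FPKM against 56.7.

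Galk1, galactokinase, was counted higher and held with both at 8 h and with anti-IgM and both at 30 h, at 26.9 to 29.8 FPKM against 11.4. Khk was lower and held with both at 8 h, at 2.74 FPKM against 7.54, as was Shpk, at 0.886 against 4.41. Counts for Shpk at 30 h, Pgm3, Tigar and Ugp2 were not held. Of 9 regulators 7 or 8 could be compared, with 0 or 1 higher and 1 or 2 lower in each comparison. Txnip, which holds back glucose uptake, stood at 193, 55.2, 128, 49.0, 71.4, 118 and 60.7 FPKM, lower and held in the 4 libraries with anti-IgM. Myc, a factor known to drive glycolytic genes, stood at 143, 263, 64.7, 264, 61.2, 29.8 and 59.9 FPKM. It was highest with anti-IgM or both at 8 h, below the counted size there, and was counted lower with BAFF at 8 h and in all 3 libraries at 30 h, of which BAFF at 30 h alone was held. The Arnt count with BAFF at 8 h was not held, and Hif1a, the hypoxia factor gene, was counted in none of the 6.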

How the data were processed

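Poly-dT primed RNA of 7 libraries was sequenced after TruSeq library preparation, per the labels' protocols. Per the submitters' processing notes, CASAVA 1.8.2, TopHat2 2.0.5, Bowtie2 2.0.0.7, Cufflinks 2.0.2 and the mm10 build were used; strand and the treatment of multiply mapped reads are not given in the sources used here. The deposited files hold, for each library, transcripts assembled separately, with FPKM and a lower and an upper bound, taken here to span 2 standard deviations of counting error on either side. A merged transcript set deposited by the authors has no expression values and was used for gene names and exons. The FPKM of named transcripts of at least 300 bases was summed per gene, because shorter pieces held 66.6% to 74.4% of summed FPKM. Mapped fragments were recovered from FPKM, its bounds and length. In all, 15 comparisons were made over all genes with a pseudocount of 1, and 12 alternatives were computed. All 34 genes were named, with related genes that were counted against the unstimulated library and reached 5 FPKM, and marker lists as sums. The genes and lists were chosen with earlier results of these data known. Protein sequences were not used here. Promoters came from RefSeq, at the start nearest to the assembled 5′ end. The work ran in Python 3.11.15 with matplotlib 3.10.9 for plots, and tables were handled with pandas 2.3.3 and numpy 2.4.6.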

Additional observations from a re-analysis of the deposited data

How the results depend on the processing

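No paired analysis was possible because each condition was 1 library. The intervals cover counting error only, and variation between animals, cultures or library preparations could not be estimated. Low or fragmented genes (Hk3, Pfkm, Slc16a3, Pfkfb2) are limited by depth and assembly. Ignoring the intervals, no filter on low values and transcripts of any length moved no count by more than 1.5 times. A pseudocount of 0.1 gave 2, 4 and 3 counted genes for BAFF at 8 h, BAFF at 30 h and BAFF at 30 h against 8 h. A minimum of 5 FPKM gave medians of 0.78, 0.62 and 0.84 for anti-IgM at 8 h and 30 h and both at 30 h. It gave 2 genes for anti-IgM at 30 h against 8 h, where 8.34% of all genes were higher and 5.87% lower. A difference of 1.5-fold gave 6 and 13 genes for BAFF at 8 h and 30 h, 18 and 14 for anti-IgM against BAFF at 8 h and 30 h, 5 and 9 for both against anti-IgM, 15 and 17 for both against BAFF, and 12, 5 and 13 between times for anti-IgM, BAFF and both. The shares of all genes at 1.5-fold were, in the same order, 25.1% and 22.2%, 31.6% and 22.6%, 15.3% and 14.0%, 30.5% and 22.4%, and 31.5%, 19.4% and 30.7%. Median-ratio scaling gave a median of 0.53 for both at 8 h and 1 gene each for BAFF at 30 h and BAFF between times. Upper-quartile scaling gave medians of 0.30, 0.18 and 0.45 at 8 h, 8 genes for both at 8 h, and 1 for each of the same BAFF comparisons. Equal summed FPKM gave medians of 0.27 and 0.45 for anti-IgM and both at 30 h. It gave 1 gene for each of those BAFF comparisons and 5 for both against anti-IgM at 8 h. A scaling divides all genes of a library by the same factor, so the medians over all genes move as well. The most abundant transcript gave medians of 0.23, 0.62 and 0.79 for anti-IgM at 8 h and 30 h and both at 30 h, 0 genes for BAFF at 8 h, 1 for both against anti-IgM at 30 h and 1 for anti-IgM between times. Reads over exons gave 0.29, 0.66 and 0.89 for those medians, beside 0.11, 0.08 and 0.05 for all genes. They gave 0 genes for BAFF at 8 h, 1 for BAFF at 30 h and 1 for both against anti-IgM at 8 h. For both against BAFF at 30 h the count was 4, and it was 1 each for anti-IgM and BAFF between times. Genes not assembled set to 0 gave 4 genes for BAFF at 8 h, a median of 0.49 for both at 8 h and 2 genes for BAFF between times. Where no value for all genes is given beside these counts and medians, an excess over all genes cannot be read from them. Of 476 single differences, 450 kept direction and side with the most abundant transcript and 436 of 470 by reads over exons. Pfkfb3 between times with anti-IgM turned to 0.11 with the most abundant transcript and 0.052 by reads over exons. By reads over exons, Pdk3 turned to 1.03 for anti-IgM against BAFF at 30 h and to 0.67 for both between times, Pfkfb3 to -0.061 for both against anti-IgM at 30 h, and Slc16a3 to 1.15 for both between times. The cause was not tested.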
